A study of Homo sapiens with 6 samples.

Results

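Cells make cholesterol and fatty acids from the same cytosolic acetyl-CoA. Many enzymes of both routes are encoded by targets of the SREBP transcription factors, which are held in the endoplasmic reticulum with the escort protein SCAP and the INSIG proteins and are released for cleavage when membrane sterols are low. Clear cell renal carcinoma is known for cells filled with cholesterol esters and triglycerides. The set described here holds 31 genes, chosen by symbol from the deposited table of 62703 genes. They comprise 18 genes of the cholesterol branch, 7 of the fatty acid branch and 6 regulators or sterol carriers. All 31 were found and all 31 passed the filter on low values.

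The samples were 6 RNA sequencing libraries of 786-O, an established line from a human clear cell renal carcinoma that lacks functional VHL protein. Of these, 3 came from cells with overexpressed OGT, which adds a single sugar (O-GlcNAc) to many intracellular proteins, and 3 from control cells whose genotype is labelled WT. All were grown in serum-containing RPMI medium. The sources used here do not give the promoter or vector behind the overexpression, nor whether the cells were a clone or a pool. Levels are in TPM, which scales reads by transcript length and by library. TPM keeps no read totals, so the depth behind each value is unknown. Every change is the overexpressing minus the control mean of log2(TPM + 1), so that the change of a low gene is understated, and a gene was called at a Benjamini-Hochberg adjusted p below 0.05 in limma over all 12645 genes tested. Nothing states that the replicates were separate cultures. The p-values therefore reflect the spread of these libraries alone, and that spread may be technical.

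OGT itself had 352.74, 352.92 and 270.87 TPM in the overexpressing libraries, against 23.11, 22.57 and 23.62 TPM in controls. Of the renal carcinoma and epithelial markers, PAX8, VIM and KRT8 were at 124.78 TPM or more in every library, whereas CDH16 and EPCAM stayed at or below 1.54 TPM. Of 10 markers of other cell types only CD68 passed the filter, and the other 9 reached at most 12.23 TPM, for PTPRC in control replicate 1. CD68 was 108 ± 10.1 TPM in overexpressing and 64.8 ± 3.68 TPM in control cells (SD, n = 3 each) and was called higher as deposited (log2 change 0.72, limma adjusted p = 5.71e-04) and under the 3 scalings below. Of 7 tested renal carcinoma and epithelial markers 3 rose and 2 fell. CDH2 rose (log2 change 1.32) and KRT18 and KRT19 fell (-0.35 and -0.56), each also under those scalings. The part of these marker differences in the results below was not tested. Across all genes the whole distribution was shifted: 48.8% of tested genes were called, 39.1% higher and 9.7% lower, and the median log2 change was 0.30. The split depended on scaling. After quantile normalization 38.0% were called (20.2% higher, 17.8% lower), and after centring every library on its median gene 39.6% were called (15.3% higher, 24.2% lower). With the trend of every library on GC content and length removed, 27.5% of 12348 genes were called (15.6% higher, 11.9% lower). The median log2 change was then 0.02, -0.09 and 0.03. Member changes are therefore read against that shift, and each call of a member is followed through these 3 scalings. Calls of other genes are followed through the trend removal.

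Calls of the cholesterol branch went in both directions with OGT overexpression, and those of the small fatty acid branch were all rises as deposited. Of the 18 cholesterol genes 4 rose and 5 fell. Of the 7 fatty acid genes 4 rose and 0 fell by limma (also 0 lower at an unadjusted p below 0.05). Of all genes 39.1% were higher and 9.7% lower, so that 0 falls among 7 genes is near the share of all genes. The 6 regulators had 3 that rose and 0 that fell by limma (0 also unadjusted). After quantile normalization, median centring and trend removal the cholesterol branch had 3, 3 and 1 genes higher and 8, 8 and 6 lower. The fatty acid branch then had 3, 1 and 2 higher. Of all genes 20.2%, 15.3% and 15.6% were higher and 17.8%, 24.2% and 11.9% lower under these scalings. In bulk RNA, fewer cells of a kind and less RNA per cell cannot be told apart. Under all 3 other scalings the calls of CYP51A1 and SCD held upward and those of PMVK, EBP, FDPS, MVD and ACAT2 held downward. That is 2 of 11 rises and 5 of 5 falls, whereas over all genes with a reference transcript 26.1% of rises and 68.8% of falls held in this way.

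Promoter sequences are shown first for members whose calls went in opposite directions, since SREBPs are known to act at sterol regulatory elements together with NF-Y, which binds CCAAT boxes. RefSeq promoters (GRCh38.p14) were matched by symbol for 27 of the 31 members, and FDFT1, FASN, SQLE and ACAT2 were not matched. The motifs TCACNCCAC (a sterol regulatory element), CCAAT and CACGTG (an E-box) were searched on both strands in the 250 bases before each start. No printed stretch has overlapping motifs, and bases annotated as untranslated region were left out. Capitals mark motif matches, with ATTGG being CCAAT on the other strand. The printed stretches are chr22:41832855-41833078 on the plus strand for SREBF2, chr5:43313513-43313662 on the minus strand for HMGCS1, chr10:1049171-1049369 on the minus strand for IDI1, chr7:92134531-92134665 on the minus strand for CYP51A1 and chr10:100346983-100347123 on the plus strand for SCD, all genes that rose. For genes that fell they are chr1:155308616-155308747 on the plus strand for FDPS and chr16:88663149-88663341 on the minus strand for MVD.
SREBF2: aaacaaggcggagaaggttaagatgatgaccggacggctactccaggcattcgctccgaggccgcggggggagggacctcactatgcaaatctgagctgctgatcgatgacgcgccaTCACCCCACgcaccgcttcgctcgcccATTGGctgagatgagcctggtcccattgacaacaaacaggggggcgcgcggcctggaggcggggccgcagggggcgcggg
HMGCS1: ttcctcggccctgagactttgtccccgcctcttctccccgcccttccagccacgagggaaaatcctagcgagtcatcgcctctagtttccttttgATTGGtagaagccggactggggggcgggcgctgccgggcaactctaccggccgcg
IDI1: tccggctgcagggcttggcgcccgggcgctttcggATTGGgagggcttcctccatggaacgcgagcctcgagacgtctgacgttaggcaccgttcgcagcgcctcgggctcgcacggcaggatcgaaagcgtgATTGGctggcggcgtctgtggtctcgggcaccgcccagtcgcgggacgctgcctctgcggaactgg
CYP51A1: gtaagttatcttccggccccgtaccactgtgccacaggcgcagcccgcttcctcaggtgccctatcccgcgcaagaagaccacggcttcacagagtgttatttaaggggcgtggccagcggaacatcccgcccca
SCD: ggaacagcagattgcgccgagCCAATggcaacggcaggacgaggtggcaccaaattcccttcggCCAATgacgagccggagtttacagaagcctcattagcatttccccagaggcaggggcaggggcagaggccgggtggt
FDPS: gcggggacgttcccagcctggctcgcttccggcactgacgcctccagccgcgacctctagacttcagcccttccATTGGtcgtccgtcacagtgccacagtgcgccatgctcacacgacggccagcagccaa
MVD: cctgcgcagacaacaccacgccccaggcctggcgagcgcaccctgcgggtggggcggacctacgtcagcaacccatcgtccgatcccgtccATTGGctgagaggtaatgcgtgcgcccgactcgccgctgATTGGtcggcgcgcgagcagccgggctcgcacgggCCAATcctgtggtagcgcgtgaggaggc

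A CCAAT box stood before at least 1 start of 21 of the 27 matched members (77.8%). Counted by gene, the box stood in 41.7% of 9365 genes whose symbol was tested and in 37.0% of all 27305 with a promoter. It was present in 7 of 9 matched members that rose and in 3 of 4 that fell. No such box was found for PMVK, which had the largest called fall, nor for CYP51A1 and SREBF1, which rose. In the printed stretches FDPS and MVD, which fell, hold 1 and 3 such boxes, and HMGCS1, IDI1 and SCD, which rose, hold 1, 2 and 2. CYP51A1, which rose, has none in its stretch. The TCACNCCAC form of the sterol regulatory element was found in SREBF2 alone among the members, 133 bases before its start (1 of 27, or 3.7%). By gene, this form was found in 1.15% of the tested genes with a promoter and 1.09% of all genes with a promoter. Other forms of the element were not searched, so members without this match may hold one. CACGTG stood in INSIG1, SC5D and SCAP, which at 11.1% of the matched members was close to the 11.5% of tested genes (7.73% of all genes with a promoter). These are matches of letters in a short window, and binding was not measured.

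**Figure D1:**
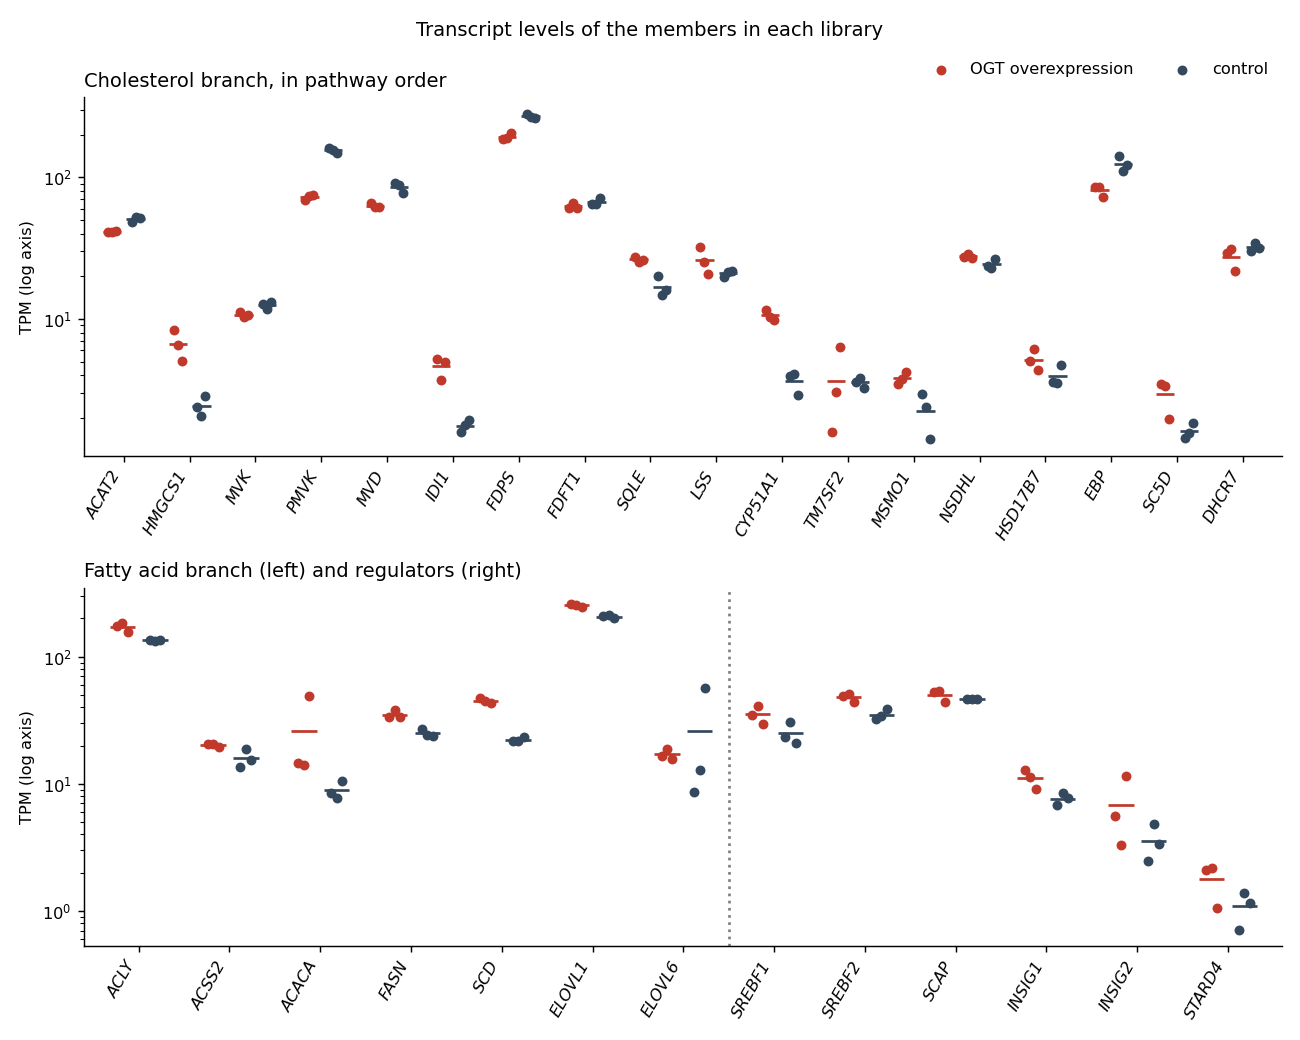
TPM of each member on a log axis in each library, with OGT overexpression in red to the left of control in dark blue, 1 point per library (n = 3 per group) and a line at the group mean. The groups stand fully apart for PMVK, FDPS, CYP51A1, HMGCS1, IDI1 and SCD, while single libraries stand far from their group for ACACA in OGT replicate 3 (48.97 TPM) and ELOVL6 in control replicate 3 (56.88 TPM).

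The first steps of the route, which build mevalonate and turn it into activated isoprene units, held the largest called fall of the set and, after CYP51A1, its largest called rises. PMVK, which encodes phosphomevalonate kinase (ENSG00000163344, chromosome 1, 154924734 to 154936991, minus strand, GENCODE release 29 on GRCh38), had 69.68, 74.23 and 75.11 TPM with OGT overexpression, against 161.92, 155.4 and 149.61 TPM in controls. Every overexpressing library lay below every control, and the ratio of means was 0.469. The log2 change was -1.08 (SE 0.0547, limma adjusted p = 4.31e-05), and -1.20, -1.47 and -0.89 after quantile normalization, median centring and removal of the GC and length trend. MVD, which encodes the decarboxylase that follows PMVK, had 66.09, 61.43 and 61.37 TPM in overexpressing libraries and 91.61, 88.9 and 77.85 TPM in controls. The groups did not overlap, and the fall of 0.44 on the log2 scale (adjusted p = 0.00321) was called under each scaling, most narrowly with the trend removed (log2 change -0.33, adjusted p = 0.0466).

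FDPS, which joins isoprene units into farnesyl diphosphate, was the most abundant transcript of the branch. It had 186.88, 190.52 and 204.1 TPM with OGT overexpression, against 281.46, 267.38 and 263.06 TPM in controls. It fell without overlap of the groups (log2 change -0.48, SE 0.0502, adjusted p = 4.42e-04). ACAT2, the cytosolic thiolase that makes acetoacetyl-CoA, was 41.3 ± 0.517 TPM in overexpressing and 51.1 ± 2.05 TPM in control cells (SD, n = 3 each). Its fall of 0.30 (adjusted p = 0.00623) was larger with the trend removed, at a log2 change of -0.65. ACAT2 shares 397 exonic bases with TCP1 on the opposite strand, which lay between 51.91 and 114.9 TPM, and without a stated strand setting the reads of both genes may not be told apart. The same holds for the other overlaps named below.

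In the same stretch of the pathway HMGCS1 and IDI1 went up. HMGCS1, the cytosolic HMG-CoA synthase (ENSG00000112972, chromosome 5, 43289395 to 43313512, minus strand), had 8.32, 6.53 and 5.03 TPM with OGT overexpression, against 2.39, 2.07 and 2.84 TPM in controls. Its means stood at a ratio of 2.72 and its log2 change was 1.13 (SE 0.209, adjusted p = 0.00429). IDI1, which interconverts the isoprene isomers, had 5.21, 3.71 and 4.96 TPM in overexpressing libraries and 1.59, 1.78 and 1.93 TPM in controls. All overexpressing values lay above all control values for both genes. Both calls held after quantile normalization and median centring, but not after the GC and length trend was removed (log2 change 0.44 with adjusted p = 0.119 for HMGCS1, and 0.34 with adjusted p = 0.16 for IDI1). IDI1 shares 643 exonic bases with the antisense gene IDI2-AS1, which reached 12.12 TPM in a library.

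MVK, mevalonate kinase, had 11.12, 10.39 and 10.72 TPM with OGT overexpression, against 12.77, 11.8 and 13.21 TPM in controls. The groups did not overlap, but the gene was not called as deposited (log2 change -0.21, adjusted p = 0.124, 95% interval -0.45 to 0.03). It was called lower after quantile normalization (adjusted p = 0.00404) and median centring (adjusted p = 0.00307) and not with the trend removed (adjusted p = 0.136). MVK shares 306 exonic bases with MMAB on the opposite strand, which lay between 24.03 and 50.68 TPM. Pseudogene copies of FDPS, IDI1 and CYP51A1 in the table reached at most 0.3 TPM.

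From squalene onward 2 genes rose and 1 fell. CYP51A1, the lanosterol demethylase (ENSG00000001630, chromosome 7, 92112151 to 92134803, minus strand), had the largest called rise of the set, with 11.61, 10.27 and 9.91 TPM with OGT overexpression and 3.95, 4.1 and 2.92 TPM in controls. Its means stood at a ratio of 2.9, and the log2 change of 1.32 (SE 0.157, adjusted p = 7.14e-04) was 0.92, 0.93 and 0.66 under the other scalings, each past the threshold. CYP51A1 shares 2844 exonic bases with the protein-coding gene AC000120.2 on the same strand, which reached at most 0.14 TPM. SQLE, squalene epoxidase, had 27.52, 25.18 and 26.27 TPM in overexpressing libraries and 20.19, 14.68 and 15.92 TPM in controls. The groups did not overlap and the log2 change was 0.62 (adjusted p = 0.00642), but SQLE was no longer called after quantile normalization (adjusted p = 0.091), median centring (adjusted p = 0.157) or trend removal (adjusted p = 0.439).

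EBP, the isomerase that shifts the sterol double bond late in the route (ENSG00000147155, chromosome X, 48521158 to 48528716, plus strand), was the gene of this stretch that fell. It had 85.43, 86.1 and 72.11 TPM with OGT overexpression, against 141.36, 111.4 and 121.39 TPM in controls. No values overlapped, and the log2 change of -0.61 (SE 0.107, adjusted p = 0.00349) kept its call under each scaling. FDFT1, squalene synthase, was not called as deposited, at 62.6 ± 3.21 TPM in overexpressing and 67.4 ± 3.66 TPM in control cells (log2 change -0.10, adjusted p = 0.238, 95% interval -0.26 to 0.05). It was called lower under all 3 other scalings, at log2 changes of -0.28, -0.49 and -0.47. DHCR7, the reductase of the last step of a route to cholesterol, was 27.4 ± 4.87 and 32.3 ± 2.14 TPM in overexpressing and control cells. It was called lower after quantile normalization (adjusted p = 0.019) and median centring (adjusted p = 0.00953), not as deposited (adjusted p = 0.18) nor with the trend removed.

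Another 6 genes of this stretch were not called as deposited. LSS, which closes the ring of lanosterol, had 32.37, 25.27 and 20.83 TPM with OGT overexpression and 19.8, 21.52 and 21.71 TPM in controls. OGT replicate 3 lay inside the control range, and without it LSS was called (log2 change 0.43, adjusted p = 0.0364). SC5D, the sterol desaturase, had 3.49, 3.38 and 1.98 TPM in overexpressing libraries and 1.44, 1.57 and 1.84 TPM in controls (adjusted p = 0.0685, and 0.0254 without OGT replicate 3). Its groups did not overlap, and OGT replicate 3 was again the lowest of its group. MSMO1, the sterol methyl oxidase, had 3.49, 3.79 and 4.23 TPM with OGT overexpression and 2.93, 2.39 and 1.41 TPM in controls, a log2 change of 0.60 without overlap (adjusted p = 0.062, and 0.0343 without control replicate 1). TM7SF2, a sterol reductase, spread from 1.59 to 6.37 TPM among overexpressing libraries, around the controls at 3.27 to 3.84 TPM (log2 change -0.10, adjusted p = 0.842). NSDHL and HSD17B7, which act in the removal of sterol methyl groups, had log2 changes of 0.18 and 0.31 (adjusted p = 0.108 and 0.199). NSDHL lay at 27.05 to 28.69 TPM with OGT overexpression and 22.9 to 26.45 TPM in controls, without overlap, and the HSD17B7 groups overlapped.

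In the fatty acid branch SCD had the clearest rise. SCD, the desaturase that makes oleate and palmitoleate (ENSG00000099194, chromosome 10, 100347124 to 100364834, plus strand), had 47.19, 44.6 and 42.93 TPM with OGT overexpression, against 21.71, 21.86 and 23.17 TPM in controls. The groups were tight and stood apart, at a ratio of means of 2.02. The log2 change was 0.98 (SE 0.0718, adjusted p = 1.38e-04), and 0.71, 0.59 and 0.39 under the other scalings, each called. FASN, the fatty acid synthase, had 33.45, 37.83 and 33.4 TPM in overexpressing libraries and 26.94, 24.26 and 23.75 TPM in controls. It rose as deposited (log2 change 0.47, adjusted p = 0.00465) and was not called after quantile normalization (adjusted p = 0.177), median centring (adjusted p = 0.507) or trend removal (adjusted p = 0.0587).

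The other 2 called genes of the branch were its most abundant. ELOVL1, an elongase of very long chains, had 259.56, 254.75 and 246.4 TPM with OGT overexpression and 207.57, 212.72 and 200.88 TPM in controls. Its rise was small (log2 change 0.29, adjusted p = 0.00162) and was called with quantile normalization and with the trend removed, but had the opposite sign and no call after median centring (log2 change -0.10, adjusted p = 0.172). ACLY, which splits citrate into acetyl-CoA for both branches, was 172 ± 13.1 TPM in overexpressing and 135 ± 1.96 TPM in control cells. Its log2 change of 0.35 (adjusted p = 0.00398) was 0.27 and called after quantile normalization, and -0.04 and -0.01, not called, after median centring and trend removal. ACLY shares 156 exonic bases with the antisense gene AC125257.2, listed at 104.09 to 376.05 TPM.

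Single libraries decided the values of ACACA and ELOVL6. ACACA, the acetyl-CoA carboxylase that commits carbon to fatty acids, had 14.68, 14.04 and 48.97 TPM with OGT overexpression, against 8.46, 7.76 and 10.44 TPM in controls. The groups did not overlap, yet the third overexpressing library stood far above the other 2. With all libraries ACACA was not called (log2 change 1.21, adjusted p = 0.0661). Without OGT replicate 3 the change was 0.64 and called (adjusted p = 0.0181), and without OGT replicate 2 it was 1.51 and called (adjusted p = 0.0415). ELOVL6, which extends palmitate, had 16.4, 18.93 and 15.75 TPM in overexpressing libraries and 8.65, 12.93 and 56.88 TPM in controls. With all libraries its log2 change was -0.14 (adjusted p = 0.87), and without control replicate 3 it was 0.63 and called higher (adjusted p = 0.0349). ACSS2, which makes acetyl-CoA from acetate, was 20.3 ± 0.632 TPM in overexpressing and 15.9 ± 2.59 TPM in control cells, with no overlap but no call (adjusted p = 0.0556). With control replicate 2 left out it passed the threshold (adjusted p = 0.0177).

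Set side by side, the median log2 change was 0.04 for the cholesterol branch and 0.35 for the fatty acid branch, against 0.30 for all genes tested. The cholesterol median lay 0.30 below the fatty acid median, and the spread of this difference between libraries of a group was 0.0707 (SD). Without OGT replicate 1 the cholesterol median lay 0.17 below, without ACAT2 it lay 0.16 below, and after quantile normalization 0.47 below. The cholesterol branch summed to between 659 and 677 TPM in overexpressing libraries and between 863 and 917 TPM in controls, a sum to which FDPS, PMVK and EBP gave most. The fatty acid branch summed to between 565 and 574 TPM with OGT overexpression and between 423 and 466 TPM in controls. No test was made of these summaries, since the members were chosen and the branches share the libraries. Values of the 2 groups did not overlap for 15 members that were higher and 6 that were lower, where 46.2% of all tested genes stood higher and 12.4% lower without overlap.

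**Figure D2:**
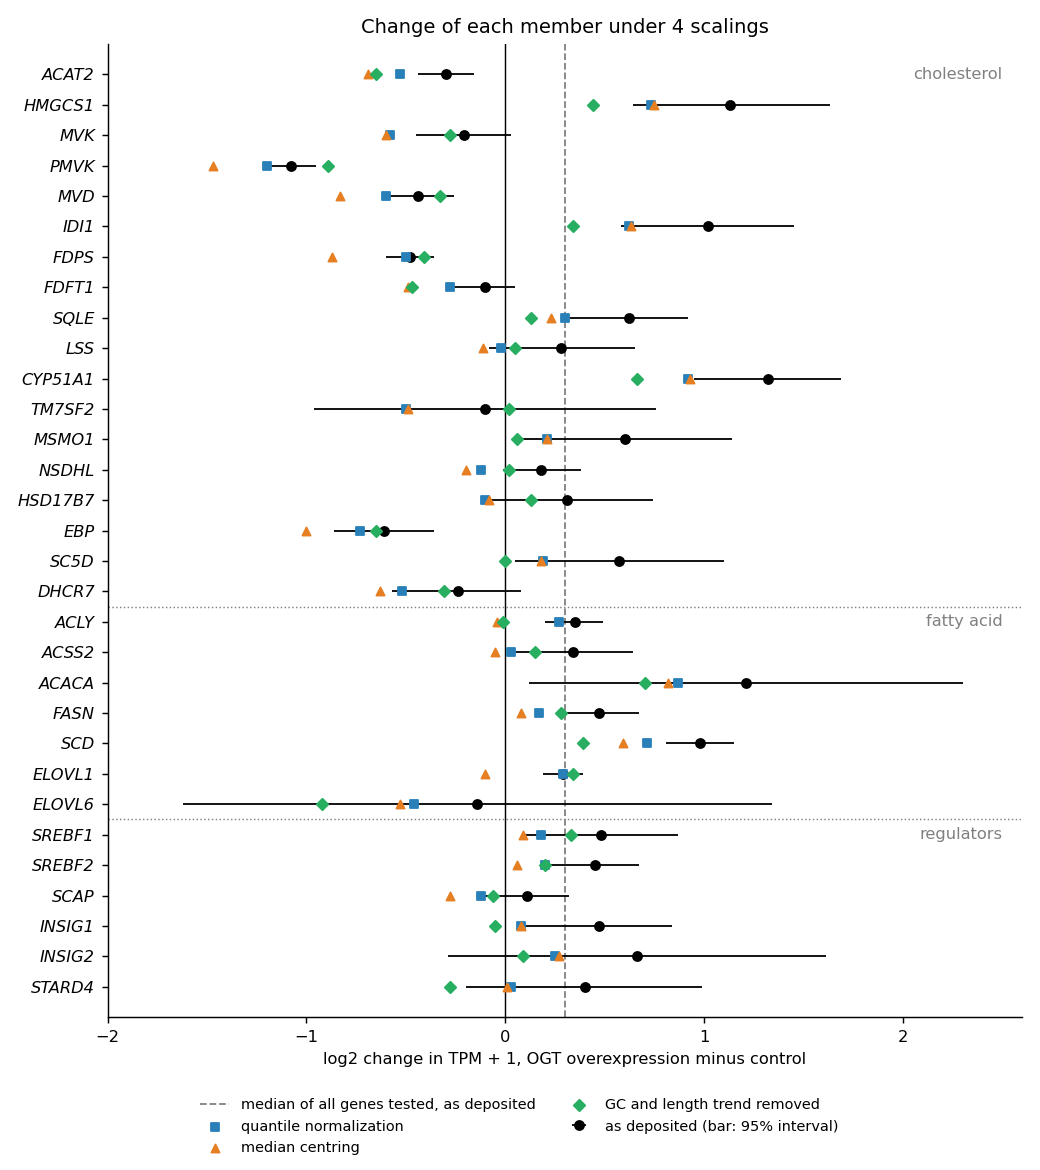
Log2 change of each member in TPM + 1, OGT overexpression minus control, as deposited (black, bar for the 95% interval) and after quantile normalization (blue), median centring (orange) and removal of the GC and length trend (green), with genes running down the page by branch. PMVK at -1.08 and CYP51A1 at 1.32 keep their sides under every scaling, whereas ACLY and SCAP cross 0 and the dashed line marks the 0.30 median of all genes tested.

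Among the regulators, both SREBP genes stood higher as deposited. SREBF2, whose product mainly drives cholesterol genes, had 49.26, 50.97 and 43.76 TPM with OGT overexpression, against 32.43, 33.96 and 38.64 TPM in controls. The groups did not overlap (log2 change 0.45, adjusted p = 0.00741). SREBF1, whose product mainly drives fatty acid genes, had 34.71, 41 and 29.69 TPM in overexpressing libraries and 23.34, 30.69 and 21.09 TPM in controls. Here the groups overlapped and the call was narrow (log2 change 0.48, adjusted p = 0.0493). INSIG1, a sterol-responsive retention protein of the endoplasmic reticulum, had 12.87, 11.22 and 9.03 TPM with OGT overexpression and 6.77, 8.4 and 7.79 TPM in controls, and was also called narrowly (log2 change 0.47, adjusted p = 0.0438).

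These 3 rises stood a little above the 0.30 median of all genes, and none was called under the other scalings, with log2 changes between 0.06 and 0.33 for SREBF1 and SREBF2 and between -0.05 and 0.08 for INSIG1. SREBF1 lost its call without OGT replicate 1 or 2, or control replicate 1 or 3 (adjusted p from 0.104 to 0.141). INSIG1 lost it without OGT replicate 1 or 2, or any 1 control (adjusted p from 0.058 to 0.14). SREBF1 shares 556 exonic bases with RAI1 on the opposite strand (16.06 to 30.39 TPM). SCAP, the escort of the SREBPs, was 50.3 ± 5.52 TPM in overexpressing and 46.3 ± 0.218 TPM in control cells, which did not pass the threshold (log2 change 0.11, adjusted p = 0.336). It was called higher without OGT replicate 3 (adjusted p = 0.035) and lower after median centring (log2 change -0.28, adjusted p = 0.0379). INSIG2, the paralog of INSIG1, spread from 3.28 to 11.43 TPM among overexpressing libraries and from 2.47 to 4.86 TPM among controls. STARD4, a sterol carrier, was the lowest member, at 1.06 to 2.16 TPM with OGT overexpression and 0.71 to 1.39 TPM in controls, and neither was called.

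OGT replicate 3 held the lowest value of its group for 21 of the 31 members (67.7%), against 44.7% of all genes tested. It was also the overexpressing library with the lowest OGT level. Members that stood out as high there were ACACA, INSIG2 and TM7SF2. Without this library 15 members were higher and 5 lower, in place of 11 and 5. Of the 12041 genes then tested 4261 were higher and 1121 lower, in place of 4941 and 1227 of 12645. The part of OGT replicate 3 in the results beyond these values was not tested.

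**Figure D3:**
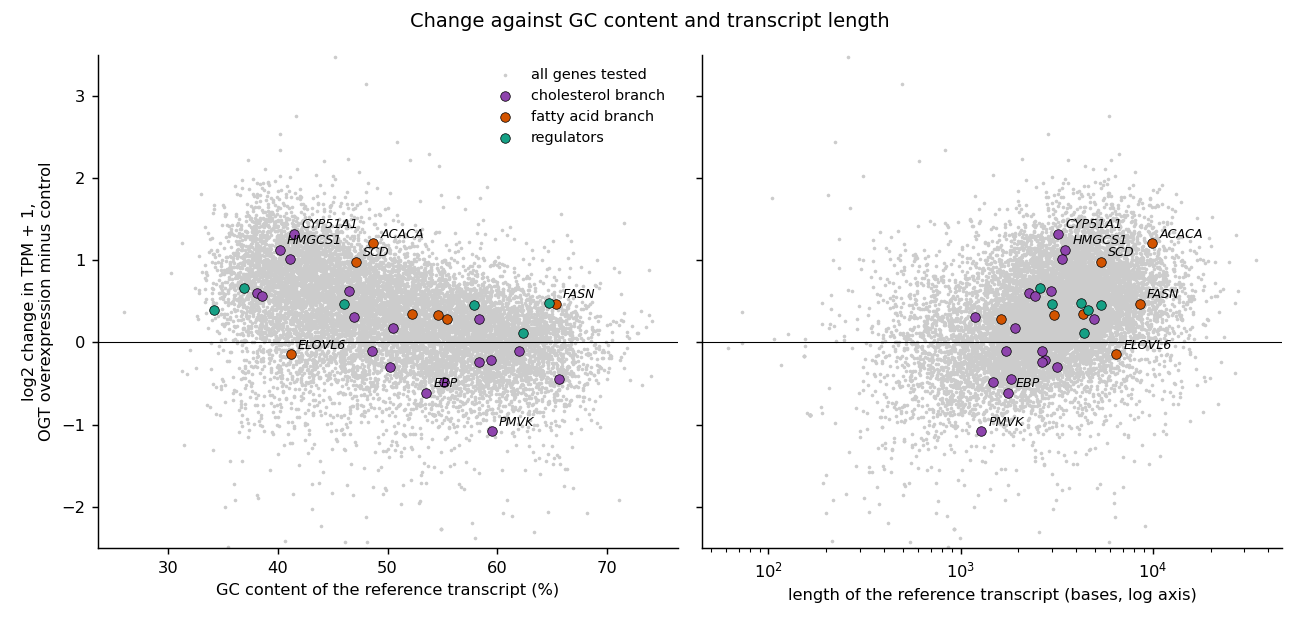
Log2 change in TPM + 1, OGT overexpression minus control, against GC content (left, %) and length (right, bases on a log axis) of each gene's reference transcript, with all tested genes in grey and members coloured by group. CYP51A1 and HMGCS1, with 41.5% and 40.2% GC, stand near the top, and PMVK and EBP, with 59.5% and 53.5% GC and short transcripts, at the bottom of the cholesterol branch.

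The members' changes varied with base composition and transcript length, as those of all genes did. Across the 31 members, which share the libraries, the Spearman correlation of the log2 change was -0.549 with GC content and 0.46 with length, against -0.472 and 0.386 over 12348 genes. Within the 18 cholesterol genes it was -0.759 with GC and 0.575 with length. Of the 8 members at or below 45% GC 3 rose and the other 5 were not called, with a median change of 0.63, where genes of that class had a median of 0.695. Of the 18 members between 45% and 60% GC 6 rose and 4 fell, with a median of 0.29 against 0.246 for such genes. Of the 5 members above 60% GC, 2 rose (FASN and SREBF1) and MVD fell, with a median of 0.11 against -0.00038 for such genes. Calls of all genes were not counted by class, and over all genes tested 39.1% were higher and 9.7% lower. The reference transcripts of the genes that fell had 1280 bases for PMVK, 1478 for FDPS, 1775 for EBP, 1823 for MVD and 3180 for ACAT2, against a median of 3030 for all genes. With the trend removed 3 members were higher (CYP51A1, SCD and ELOVL1) and 6 lower (PMVK, ACAT2, EBP, FDFT1, FDPS and MVD), against 15.6% and 11.9% of all genes. The part of GC content or length in the members' changes was not tested.

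Genes around the pathway were taken from lists of known function. Their counts stand against 39.1% higher and 9.7% lower of all genes tested as deposited, 15.3% and 24.2% after median centring, and 15.6% and 11.9% with the GC and length trend removed. In the list of other cholesterol synthesis genes 4 of 6 tested genes rose and 0 fell by limma (0 also unadjusted; another 3 of the 9 listed stayed at or below 0.74 TPM and were untested). The mitochondrial thiolase ACAT1 was 36.6 ± 2.02 TPM in overexpressing and 18.6 ± 1.4 TPM in control cells (log2 change 0.94, adjusted p = 2.94e-04), whereas its cytosolic counterpart ACAT2 fell. PGRMC1, a partner of sterol-metabolising cytochromes, and LBR, which also has sterol reductase activity, had log2 changes of 0.96 and 1.07. With the trend removed ACAT1 and PGRMC1 stayed called and LBR did not (log2 change 0.37, adjusted p = 0.0975), and after median centring 3 were higher and 1 lower.

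Of 17 tested genes of SREBP processing and turnover 14 rose and 0 fell by limma (0 also at an unadjusted p below 0.05), against 39.1% and 9.7% of all genes. Among them was the protease gene MBTPS1, which makes the first cut of SREBPs. MBTPS1 was 37.6 ± 2.37 TPM in overexpressing and 22.6 ± 0.385 TPM in control cells (log2 change 0.71, adjusted p = 4.71e-04). The coat genes SEC23A and SAR1B, which serve export from the endoplasmic reticulum, and the ubiquitin ligase gene RNF139 had log2 changes of 1.05, 1.26 and 1.04. With the trend removed MBTPS1, SAR1B, RNF139 and the coat gene SEC24C were called higher and SEC23A was not (log2 change 0.33, adjusted p = 0.0984). ERLIN1, which rose as deposited (log2 change 0.24), was then lower (log2 change -0.42), and after median centring 5 were higher. The median of the list was 0.73 as deposited and 0.17 with the trend removed, and its median GC content was 42.9%, against 50.1% for all genes.

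Of 17 tested genes of sterol uptake, trafficking and storage 14 rose and 0 fell by limma (STARD5 alone was lower at an unadjusted p below 0.05, with log2 change -0.63 and adjusted p = 0.0549; STARD5, STARD3, ERLIN1 and SEC24C are named after their values were seen). SCARB1, the lipoprotein receptor that takes up cholesteryl esters, was 84.1 ± 7.28 TPM in overexpressing and 37.5 ± 4.55 TPM in control cells (log2 change 1.15, adjusted p = 2.94e-04, and 0.97 with the trend removed). LIPA, the lysosomal lipase that frees cholesterol from its esters, was 35.6 ± 1.65 and 16 ± 0.351 TPM in overexpressing and control cells (log2 change 1.11, and 0.52 with the trend removed). VLDLR and NPC1, which encode a lipoprotein receptor and the lysosomal cholesterol exporter, had log2 changes of 1.23 and 0.64. With the trend removed SCARB1, LIPA, VLDLR, NPC1 and STARD3 were higher and STARD5 was lower, and after median centring 7 were higher and 3 lower. LXRs are receptors for oxysterols. Among 9 tested genes listed as LXRs or as linked to them, LPCAT3 rose and ABCA7 fell, at log2 changes of 0.55 and -0.71. The other 7 were not called. With the trend removed ABCA7 stayed called and LPCAT3 did not (adjusted p = 0.00434 and 0.0705). After median centring 0 genes of this list were higher and 3 lower.

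Of 22 tested genes of other fatty acid synthesis, elongation and activation 13 rose and 3 fell, namely FADS3, MECR and TECR at log2 changes of -0.44, -0.32 and -0.22 (these and the genes lower with the trend removed are named after their values were seen). The elongation cycle genes HACD3 and HSD17B12 had log2 changes of 1.03 and 1.08, and the polyunsaturated elongase and desaturase genes ELOVL5 and FADS1 had 0.95 and 0.68. All 4 kept their calls with the trend removed, when 7 genes of the list were higher and 4 lower. The 4 were FADS3, MECR, HACD1 and MID1IP1, of which HACD1 and MID1IP1 were not called as deposited, whereas TECR had a log2 change of 0.00 and no call (adjusted p = 0.994). ELOVL5 was 35 ± 2.71 TPM in overexpressing and 17.6 ± 1.98 TPM in control cells.

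**Figure D4:**
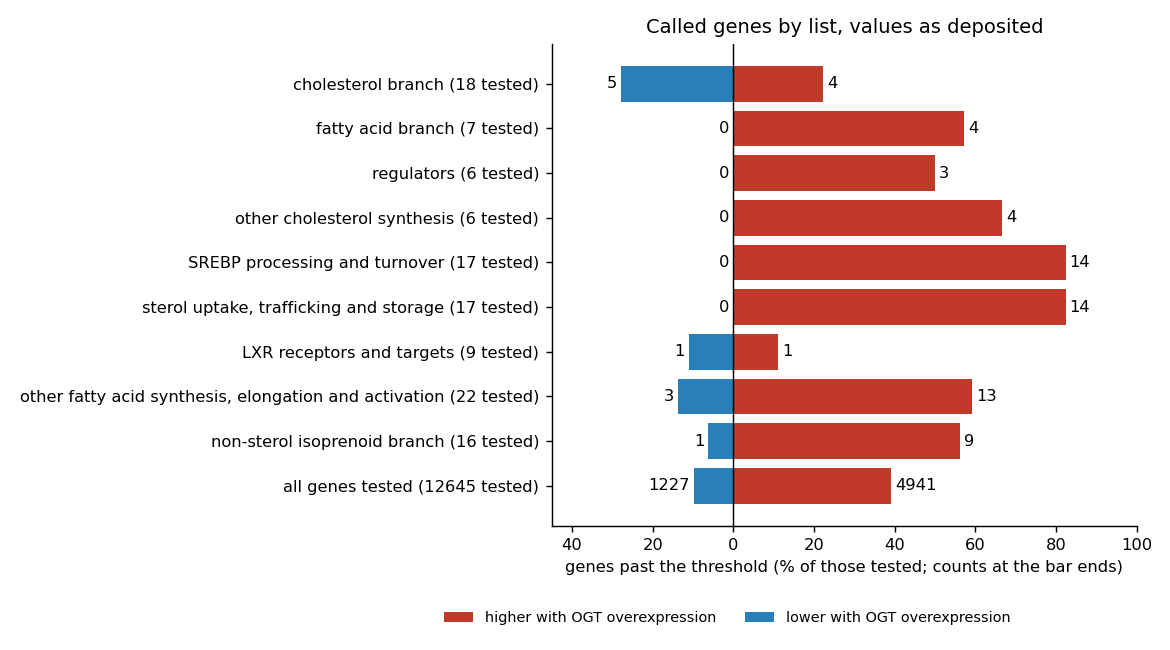
Share of tested genes past the threshold in each list, as deposited, higher with OGT overexpression to the right and lower to the left of 0, with the counts at the bar ends. The cholesterol branch has 4 higher and 5 lower, while the lists of SREBP processing and of sterol uptake, trafficking and storage have 14 higher and 0 lower each, against 4941 and 1227 of all 12645 genes tested.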

How the data were processed

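The authors deposited TPM per gene, 1 column per sample, for 62703 human Ensembl identifiers. The unit was read from the values, whose totals lay between 993935.5 and 996951.6 per library. The sources used here do not give the aligner, counter, annotation or strand setting. The mouse builds GRCm38 and mm10 are named per the submitters' processing notes, while the table's identifiers are human. Depth and counting precision are unknown.

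Groups and replicates came from the sample titles. The test took genes that reached 1 TPM in 3 or more libraries, using limma 3.58.1 (R 4.3.3) on log2(TPM + 1) (eBayes with trend and robust, two-sided, Benjamini-Hochberg over 12645 genes, threshold 0.05), with 1 contrast and no covariate. The fit was also run on simulated data with no overall shift and no GC or length trend. That run cannot bear on the shift or the trend. GC content, length and gene positions came from GENCODE release 29 by identifier, using a gene's longest protein-coding transcript or, failing that, its longest (12348 tested genes matched); trends were fitted by natural splines with 4 degrees of freedom. A count test was not used, since the values are TPM.

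The members, lists and rules were chosen with earlier results of these data known. Named were all members, OGT and up to 4 called genes with the smallest adjusted p per list. Of the genes this rule names, 1 is not reported here. The markers CDH16, EPCAM and PAX8 are given as checks. Alternatives were another pseudocount, other filters, scalings and variance models, a replicate block, each library left out and other branch memberships. List genes that are not named are given by counts.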

Additional observations from a re-analysis of the deposited data

How the results depend on the processing

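TPM without read totals limits every value to the spread of 3 libraries per group. With a pseudocount of 0.1 TPM all 31 members kept their direction and side of the threshold. Genes called numbered 6168, and 3396 with the GC and length trend removed. Cholesterol genes called higher numbered 4, against 2 when only genes averaging 5 TPM or more were tested (8190 genes). HMGCS1, IDI1, MSMO1, SC5D, HSD17B7 and TM7SF2 averaged less than 5 TPM and were not tested there. CYP51A1 and SQLE kept their calls. Cholesterol genes called higher numbered 6 without trend and robust fitting, and 1 with the GC and length trend removed. Those called lower numbered 5, against 8 after quantile normalization and 8 after median centring. Fatty acid genes called higher numbered 4, against 1 after median centring and 2 with the trend removed. Of all genes 39.1% were higher and 9.7% lower as deposited, and 20.2% and 17.8% after quantile normalization. These shares were 15.3% and 24.2% after median centring, and 15.6% and 11.9% with the trend removed. Among the 8190 genes averaging 5 TPM or more 3621 were higher, and without trend and robust fitting 4823 of 12645. The cholesterol median minus the fatty acid median was -0.30, and -0.57 among genes averaging 5 TPM or more. Members still tested at 5 TPM had the same log2 changes, and only the set of cholesterol genes differed. The difference of medians was -0.47 after quantile normalization, -0.42 without ACLY and ACSS2 and -0.16 without ACAT2. It lay between -0.40 and -0.17 with 1 library left out. Beyond the genes left out, the cause of these shifts was not tested.

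Signs turned after quantile normalization for LSS (-0.02), NSDHL (-0.12), HSD17B7 (-0.10) and SCAP (-0.12). They turned after median centring for LSS (-0.11), NSDHL (-0.20), HSD17B7 (-0.08), ACLY (-0.04), ACSS2 (-0.05), ELOVL1 (-0.10) and SCAP (-0.28). With the trend removed they turned for TM7SF2 (0.02), SC5D (-0.00194), ACLY (-0.01), SCAP (-0.06), INSIG1 (-0.05) and STARD4 (-0.28). With 1 library left out TM7SF2 ranged from -0.50 to 0.26 and ELOVL6 from -0.66 to 0.63. With no filter SREBF1 and INSIG1 lost their calls (adjusted p = 0.116 and 0.0937).

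Same-numbered replicates share only a number: their deviations from the group means had correlations of -0.0194, 0.00264 and 0.0166. The best partner of a sample had the same number for 1 of 6. With a replicate block 5473 genes were called, ACACA was called (adjusted p = 0.0336) and INSIG1 was not (adjusted p = 0.0819).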

Other observations

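The pathway also has a side branch that carries isoprenes away from sterols. Of its 16 genes of protein prenylation, dolichol and ubiquinone synthesis 9 rose and 1 fell in limma as deposited, where 39.1% of all genes tested were higher and 9.7% lower. The gene that fell was RABGGTA, a subunit of the enzyme that prenylates Rab proteins, at a log2 change of -0.33, and it lost its call with the GC and length trend removed (adjusted p = 0.0591). ZMPSTE24, the protease that processes prenylated lamin A, was 11.3 ± 0.516 TPM in overexpressing and 3.31 ± 0.24 TPM in control cells (SD, n = 3 each), a log2 change of 1.51 (limma adjusted p = 2.03e-04). RCE1, the other protease of prenylated proteins, had a log2 change of 0.61, PDSS2, which builds the ubiquinone tail, 1.19, and NUS1, of dolichol synthesis, 1.10. With that trend removed 4 genes of the list were higher and 1 lower, against 15.6% and 11.9% of all genes. The lower one was ICMT, the methyltransferase of prenylated proteins (log2 change -0.18, adjusted p = 0.0469), which rose as deposited (log2 change 0.29). RABGGTA and ICMT are named after their values were seen. ZMPSTE24, RCE1 and PDSS2 kept their calls there (log2 changes of 0.86, 0.77 and 0.53), and NUS1 did not (adjusted p = 0.113). After median centring 4 were higher and 1 lower, RABGGTA.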
